A study of Mus musculus with 4 samples.

Results

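MicroRNA (miRNA) hairpins known from pancreas, mir-216a, mir-216b, mir-217 and mir-375, were followed through 4 small RNA libraries of mouse liver. The members were chosen by name as both arms of each hairpin, which gave 8 of the 1907 mature miRNAs counted in each library. TAA-treated liver (2 libraries, TAA 1 and TAA 2) came from C57BL/6 mice given thioacetamide, a hepatotoxin used to produce liver fibrosis in rodents, over 10 weeks, with 3 intraperitoneal injections weekly at 200 mg/kg each. Control liver (2 libraries, control 1 and control 2) came from C57BL/6 mice labelled as controls, with no vehicle named. All mice were 15 weeks old. The series calls the libraries of a group biological replicates without naming animals, so p-values refer at most to the spread between these libraries.

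A miRNA is cut from a hairpin as 2 short arms, named 5p and 3p, and 1 of them is usually kept to repress target mRNAs through its seed, bases 2 to 8. The miR-216 and miR-217 genes form a cluster whose products are abundant in pancreas, where they are enriched in the enzyme-secreting acinar cells. miR-375 is abundant in pancreatic islets, where it restrains insulin secretion in mice, and it is also made in other endocrine and mucosal epithelial cells. None of the 4 hairpins is regarded as a typical liver miRNA.

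The mature 5p arms of the cluster are shown because they carried most of its reads, with the seed in capitals (RefSeq, GRCm38.p6, 5′ to 3′):
mmu-miR-216a-5p: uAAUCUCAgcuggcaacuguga
mmu-miR-216b-5p: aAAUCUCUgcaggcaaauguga
mmu-miR-217-5p: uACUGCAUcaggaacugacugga
The arms of miR-216a and miR-216b were identical at 18 of 22 positions. Counted from the 5′ end, with the miR-216a-5p base first, they differed at U1A, A8U, U11A and C17A. They therefore share bases 2 to 7 but not base 8, and no other of the 1738 mature miRNAs in the sequence table had the same bases 2 to 8 as either. miR-217-5p also shared its seed with none of them.

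The opposite arms, which were counted separately, lie on the same hairpins. They are shown with both mature arms in capitals, since each arm has its own row in the count files:
Mir216b: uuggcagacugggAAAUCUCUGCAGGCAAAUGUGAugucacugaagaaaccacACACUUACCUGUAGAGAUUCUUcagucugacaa
Mir216a: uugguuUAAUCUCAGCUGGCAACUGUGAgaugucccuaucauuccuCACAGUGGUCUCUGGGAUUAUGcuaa
Mir217: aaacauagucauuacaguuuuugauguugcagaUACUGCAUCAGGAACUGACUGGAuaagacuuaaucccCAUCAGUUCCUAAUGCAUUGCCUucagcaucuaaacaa
For mir-375, the 5p arm is shown because it had no reads in any library:
mmu-miR-375-5p: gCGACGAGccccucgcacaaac
The sequence table matched 7 of the 8 members, all but mmu-miR-375-3p. The prefix mmu, for mouse, is left out below.

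The 3 cluster hairpins lie on the plus strand of chromosome 11 within 17.6 kb (GRCm38, which is mm10). Mir216b is at chr11:28746191-28746276, Mir216a at chr11:28757012-28757083 and Mir217 at chr11:28763728-28763835. Mir216a and Mir217 lie in introns of Gm12082, a long intergenic non-coding RNA gene of the same strand in GENCODE M21. Mir216b lies outside that gene and overlaps Mir216c, a hairpin on the opposite strand. Both arms of miR-216c had 0 reads in each of the 4 libraries. Mir375 is at chr1:74900658-74900721 on the minus strand of chromosome 1, outside other annotated genes, 7.52 kb from Cryba2 and 1.35 kb from Cfap65.

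**Figure D1:**
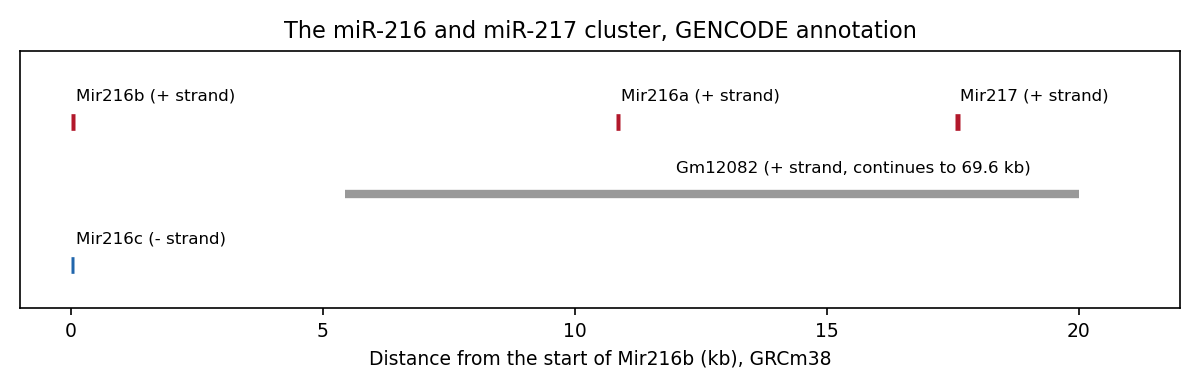
Map of the miR-216 and miR-217 cluster in GENCODE M21, with distance from the start of Mir216b in kb on the horizontal axis and genes drawn to scale by strand. Mir216a starts 10.8 kb and Mir217 17.5 kb from the start of Mir216b, both within Gm12082.

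The libraries held 43836911 and 48878003 miRNA counts in TAA 1 and TAA 2, and 42609845 and 46224018 in control 1 and control 2. Levels below are CPM, read counts scaled to library sizes adjusted with TMM factors, so that 1 CPM stands for 42.3 to 51.3 reads. Intervals of counts are exact 95% Poisson intervals and those of shares exact 95% binomial intervals, and both cover counting error only. The miRNAs listed for hepatocytes were abundant in each library as a sum, of which miR-192-5p was the largest part. That miRNA had 225049 to 264434 CPM per library, against 17376.3 to 21607.5 CPM for miR-122-5p. The 9 listed summed to 383666 and 392419 CPM in TAA 1 and TAA 2, and to 424491 and 462657 CPM in control 1 and control 2. Control 1 stood apart from the other 3 libraries in the pancreatic miRNAs, so results are given with and without it. In bulk tissue, fewer cells of a type and less RNA per cell cannot be told apart.

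Nearly all reads of the cluster came from control 1. The 6 arms of miR-216a, miR-216b and miR-217 together had 22 reads in TAA 1 (interval 13.8 to 33.3) and 8 in TAA 2 (3.45 to 15.8). They had 348 reads in control 1 (312 to 387) and 2 in control 2 (0.242 to 7.22). Control 1 thus held 91.6% of the cluster's reads in the series. The summed level averaged 0.32 ± 0.23 CPM in TAA-treated liver and 4.13 ± 5.78 CPM in control liver (SD, n = 2 each), and the control SD exceeded the control mean. Control 2 was the lowest of the 4 libraries and control 1 the highest, so the TAA libraries lay between the controls. Per scaled library, control 1 was 17.0-fold above TAA 1 (interval 11.0 to 27.5), 52.7-fold above TAA 2 (26.5 to 123) and 176-fold above control 2 (48.3 to 1457).

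**Figure D2:**
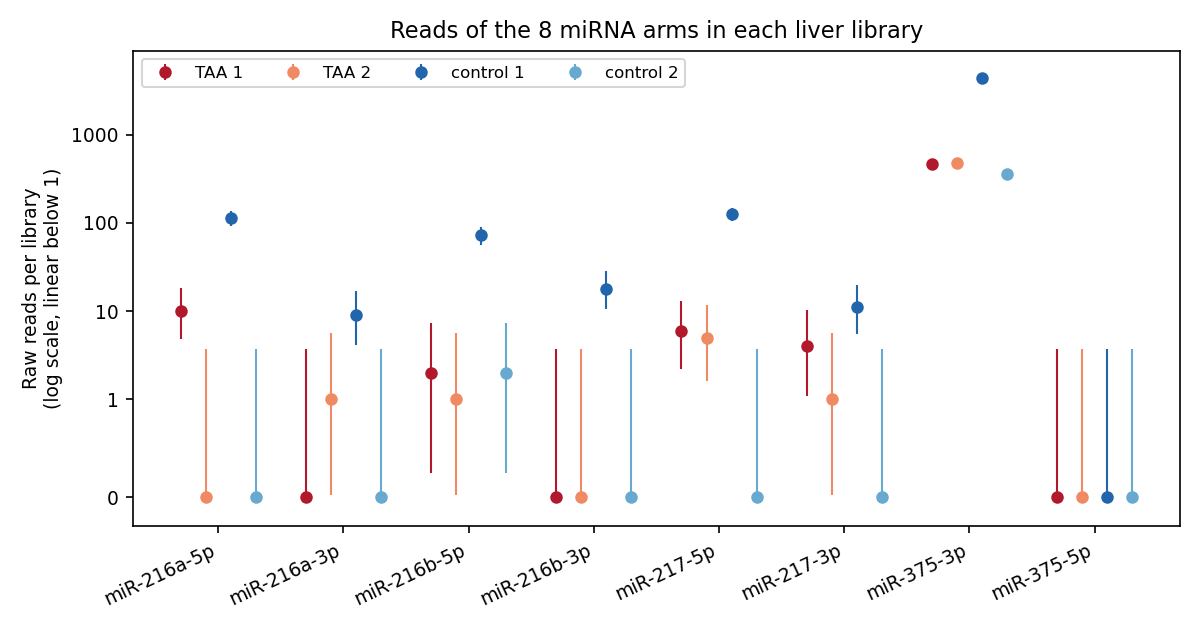
Raw reads of each of the 8 arms in each library, on an axis that is logarithmic above 1 and linear below, with exact 95% Poisson intervals as bars. Control 1 is the highest library for the 7 arms with reads, while miR-375-3p is the arm with 362 or more reads in each of the other 3 libraries.

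miR-217-5p was the most abundant cluster arm, and in human endothelial cells it is known to repress SIRT1. It had 6 reads in TAA 1 and 5 in TAA 2, against 125 in control 1 and 0 in control 2. In levels this was 0.132 and 0.0975 CPM in the TAA libraries and 2.95 and 0 CPM in the controls, where 0 reads allow up to 0.0702 CPM in control 2. Both TAA libraries therefore lay between the controls. miR-217-3p, the other arm, had 4 and 1 reads in TAA 1 and TAA 2, against 11 and 0 in control 1 and control 2. Control 1 was 22.4-fold above TAA 1 in the 5p arm (interval 9.99 to 62.1), but 2.95-fold in the 3p arm, with an interval of 0.875 to 12.7 that includes equal levels.

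miR-216a-5p had 10 reads in TAA 1 and 0 in TAA 2, against 113 in control 1 and 0 in control 2. The groups overlapped, since a library of each had no reads. Its level was 0.220 CPM in TAA 1, against 2.67 CPM in control 1, which was 12.1-fold higher (interval 6.36 to 26.0). Control 1 set against control 2 at the limit of 3 reads was at least 38.0-fold higher. miR-216a-3p had 0 and 1 reads in TAA 1 and TAA 2, against 9 and 0 in control 1 and control 2.

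miR-216b-5p had 2 reads in TAA 1 and 1 in TAA 2, against 72 in control 1 and 2 in control 2. It was the cluster arm with reads in each library, although outside control 1 it never exceeded 2. Its level was 0.0440 CPM in TAA 1 and 0.0195 CPM in TAA 2, against 1.70 CPM in control 1 and 0.0468 CPM in control 2. TAA 1 and control 2 had equal read numbers. miR-216b-3p had 0 reads in TAA 1 and TAA 2, against 18 in control 1 and 0 in control 2. A count of 0 in those 3 libraries allows a level of up to 0.0585 to 0.0702 CPM.

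The cluster hairpins could be set against each other in control 1, with too few reads elsewhere. In TAA 1, mir-217 and mir-216a had 10 reads each and mir-216b had 2. In TAA 2 mir-217 had 6 and the others 1 each. Both reads of control 2 were mir-216b. In control 1, mir-217 made up 39.1% of the 348 reads (interval 33.9 to 44.4), mir-216a 35.1% (30.0 to 40.3) and mir-216b 25.9% (21.3 to 30.8). The intervals of mir-217 and mir-216a overlap each other, and that of mir-217 lies above that of mir-216b. Pooled over TAA 1, TAA 2 and control 2, the 32 reads divided into 50.0% mir-217 (31.9 to 68.1), 34.4% mir-216a (18.6 to 53.2) and 15.6% mir-216b (5.28 to 32.8). These intervals include the shares of control 1 for each hairpin.

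The 5p arm was the main product of each cluster hairpin in control 1. It made up 92.6% of mir-216a reads (113 of 122, interval 86.5 to 96.6), 91.9% of mir-217 reads (125 of 136, 86.0 to 95.9) and 80.0% of mir-216b reads (72 of 90, 70.2 to 87.7). In the other 3 libraries together the 5p share of mir-217 was 68.8% (11 of 16 reads), with an interval of 41.3 to 89.0 that overlaps that of control 1. mir-375 had the opposite arm use. Of its 5679 reads in the series 0 were 5p, which allows a 5p share of up to 0.0649% by the exact interval. For a miRNA at 0 reads, the limit of 3 reads came to 0.0660 and 0.0585 CPM in TAA 1 and TAA 2, and 0.0709 and 0.0702 CPM in control 1 and control 2.

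miR-375-3p was the most abundant member and the one measured well in every library. It had 463 reads in TAA 1 and 481 in TAA 2, against 4373 in control 1 and 362 in control 2. In levels this was 10.2 CPM (interval 9.28 to 11.2) and 9.38 CPM (8.56 to 10.3) in the TAA libraries, against 103 CPM (100.3 to 106) and 8.47 CPM (7.62 to 9.39) in the controls. TAA 1, TAA 2 and control 2 lay close together and control 1 far above them, with the TAA libraries between the controls. Control 1 was 10.1-fold above TAA 1 (interval 9.21 to 11.2), 11.0-fold above TAA 2 (10.0 to 12.1) and 12.2-fold above control 2 (11.0 to 13.6). Among the 1907 miRNAs it ranked 281 and 283 in TAA 1 and TAA 2, and 135 and 265 in control 1 and control 2.

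As a fold, the excess in control 1 was larger for the cluster than for miR-375-3p. Against the other 3 libraries pooled, control 1 was 35.8-fold higher in the cluster sum (interval 24.9 to 53.2). In miR-375-3p it was 11.0-fold higher (10.4 to 11.7). These intervals do not overlap, but they cover counting error only. Against TAA 1 alone the intervals overlap, at 11.04 to 27.5 for the cluster and 9.21 to 11.18 for miR-375-3p. In CPM the excess was larger for miR-375-3p, with 103 CPM in control 1 and 9.36 CPM in the others pooled. The cluster had 8.22 and 0.229 CPM. miR-375-3p had 21.0 reads per cluster read in TAA 1 (13.7 to 33.9) and 60.1 in TAA 2 (30.3 to 140). It had 12.6 in control 1 (11.3 to 14.1) and 181 in control 2 (49.7 to 1500). The ratio in control 1 was the lowest of the 4, with an interval that overlaps that of TAA 1 and lies below those of TAA 2 and control 2.

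The comparison of the series, TAA-treated against control liver, addresses the miRNAs that differ in the fibrotic liver. No pancreatic miRNA passed edgeR's quasi-likelihood test at a Benjamini-Hochberg adjusted p of 0.05, for which 2 of the 8 had enough reads. At an unadjusted p under 0.05, 1 of these 2 passed, miR-375-3p, against 25.6% of all miRNAs tested. Of all 644 miRNAs tested, 107 passed (16.6%), 90 higher (14.0%) and 17 lower (2.64%) in TAA-treated liver. Of the 107, 84.1% were higher, and 72.2% of those called were higher with upper-quartile factors. miR-375-3p averaged 9.78 ± 0.57 CPM in TAA-treated liver and 55.9 ± 67.1 CPM in control liver (SD, n = 2 each). The test gave it a log2 fold change of -2.51 (SE 0.88, edgeR adjusted p = 0.107). Its 95% interval reached from -4.55 to -0.48. miR-216a-5p averaged 0.110 ± 0.156 CPM in TAA-treated liver and 1.33 ± 1.89 CPM in control liver, a log2 fold change of -3.63 (SE 1.67, edgeR adjusted p = 0.221). It entered the test because control 1 and TAA 1 each had at least 10 reads. The median log2 fold change of these 2 members was -3.07, against 0.00 for all 644 miRNAs, and with 2 members it says no more than their values. With 2 libraries against 2, an exact two-sided permutation of a single value cannot give a p below 0.333.

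The direction of miR-375-3p depended on control 1. Without that library, the log2 fold change turned to 0.19 (SE 0.27, interval -0.34 to 0.72, edgeR adjusted p = 0.787), which rests on control 2 alone and assumes that it varies like the other libraries. The value with all 4 libraries lies outside that interval, but the fits share libraries, so this is no test of a difference between them. In that fit miR-375-3p was the sole member with enough reads to be tested, while 18.0% of 679 miRNAs passed, 4.27% as lower. Without control 2, where the control group is control 1 alone, the log2 fold change was -3.41 (SE 0.23, edgeR adjusted p = 1.36e-42), and 5 of the 6 members then tested were called lower, against 4.78% of all 690 miRNAs called lower and 19.0% called in either direction. Apart from miR-375-3p these members entered that fit mainly through their reads in control 1, so their count says no more than those reads. The log2 fold change of miR-375-3p was -2.57 (SE 1.57) without TAA 1 and -2.45 (SE 1.49) without TAA 2. In both fits the TAA group is 1 library.

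**Figure D3:**
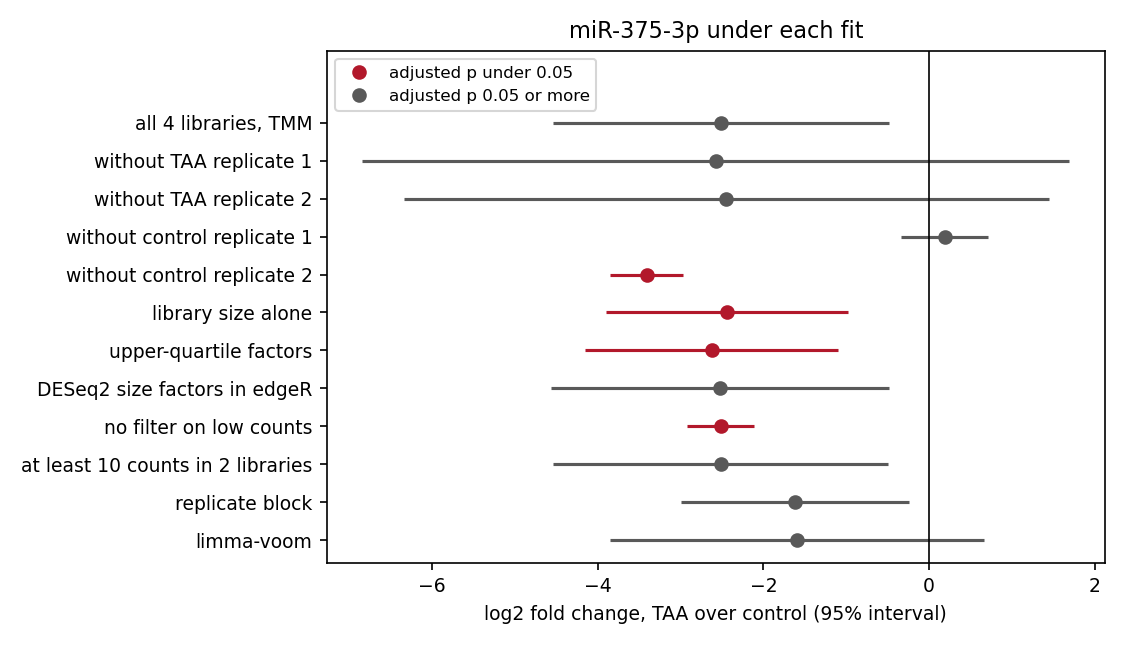
Log2 fold change of miR-375-3p, TAA over control, with its 95% interval under 12 fits, in red where the adjusted p was under 0.05. Not drawn are the fits with DESeq2 (-2.52) and with replicate numbers crossed (-1.63), which did not pass. It is -2.51 with all 4 libraries and 0.19 without control replicate 1, where the interval spans 0.

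Whether the low arms were called also depended on the filter. With no filter on low counts, 7 members were tested and 5 were called lower (miR-216a-5p, miR-216b-5p, miR-216b-3p, miR-217-5p and miR-375-3p), against 2.55% of 1256 miRNAs called lower and 10.9% in either direction. In that fit the log2 fold change was -3.66 for miR-217-5p (SE 0.52, edgeR adjusted p = 8.15e-11) and -4.69 for miR-216b-5p (SE 0.75, edgeR adjusted p = 6.89e-09). Both values come from the reads of control 1, since control 2 had 0 and 2 reads of these miRNAs. With the same libraries, the SE of miR-375-3p was 0.21 in that fit and 0.88 with the filter. The small p-values there therefore understate the spread between the controls. miR-216a-3p and miR-217-3p did not pass there (adjusted p = 0.489 and 0.781). With DESeq2, miR-216b-5p was called lower (adjusted p = 0.00901), and miR-375-3p was not (adjusted p = 0.326).

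Among miRNAs with a mean of at least 10 reads, 4 pancreatic arms had the largest gaps between control 1 and the other libraries. For each of these 622 miRNAs, log2(CPM + 0.5) in 1 library was set against the highest of the other 3, a measure chosen after the values were seen. The added 0.5 CPM shrinks gaps of miRNAs that lie below it elsewhere, as the cluster arms did outside control 1. The order of gaps is therefore not that of plain ratios of control 1 to the other 3 libraries pooled. Those ratios were 47.5 for miR-216b-5p, 37.4 for miR-217-5p, 37.2 for miR-216a-5p and 11.0 for miR-375-3p. In control 1 the 4 largest gaps were those of miR-375-3p (3.28), miR-217-5p (2.45), miR-216a-5p (2.14) and miR-216b-5p (2.01). These are the 4 members that reached that mean, and the 3 cluster arms among them reached it through their reads in control 1. The next were miR-615-3p (1.41) and miR-205-5p (1.31), and no other miRNA exceeded 1. In TAA 2, 7 miRNAs exceeded 1, led by the red-cell miRNA miR-144-3p (2.05), and in TAA 1 and control 2 none did.

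**Figure D4:**
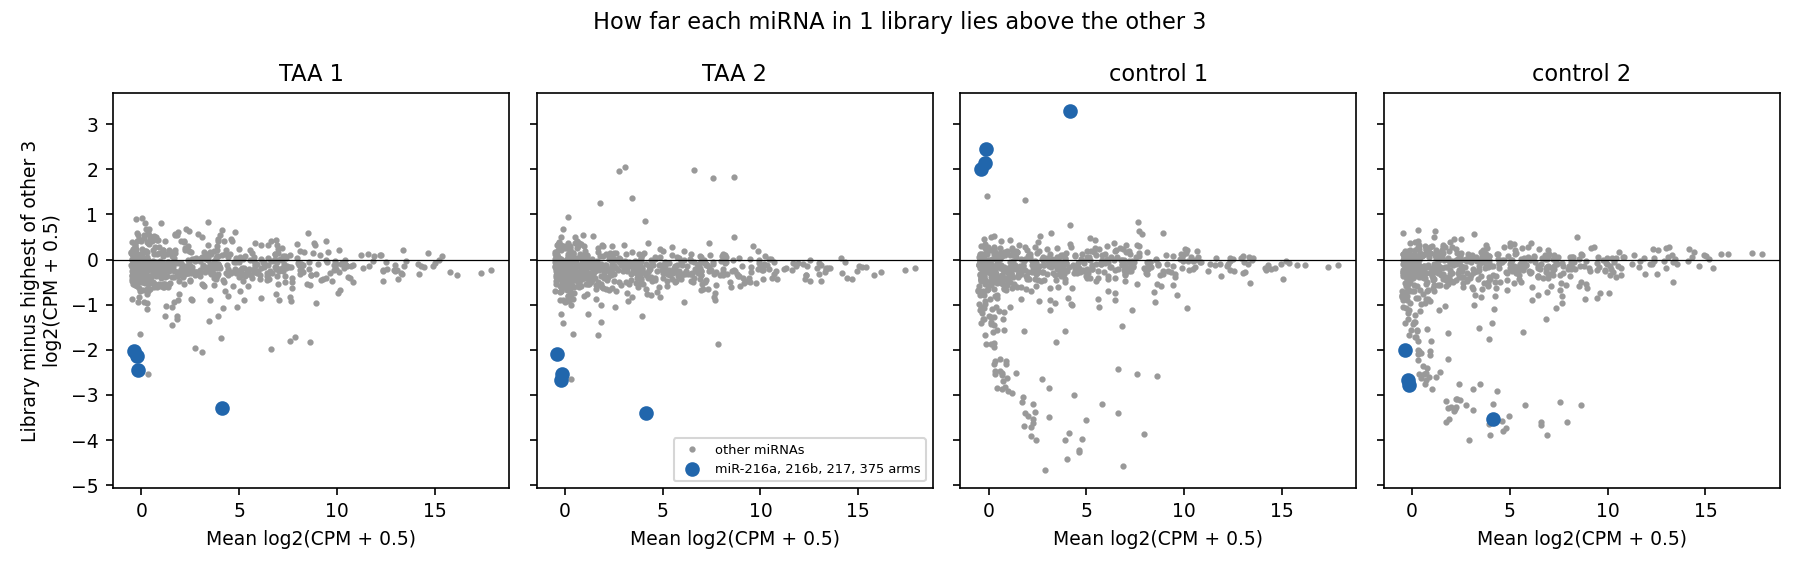
For each of 622 miRNAs, the difference in log2(CPM + 0.5) between 1 library and the highest of the other 3, against mean log2(CPM + 0.5), with 1 panel per library and the members in blue. In control 1, 4 members lie from 2.01 to 3.28 above the other libraries, and in the other panels they lie below 0.

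The same miRNAs came out as nearest in profile, by Euclidean distance between mean-centred log2(CPM + 0.5) over the 4 libraries, a description with no test. Here too the added 0.5 CPM shrinks differences below that level. A small distance thus need not mean a like fold excess in control 1. Candidates were the 644 tested miRNAs, so miR-217-5p and miR-216b-5p, which were not tested, could not be named as neighbours. The nearest tested miRNA to miR-375-3p was miR-216a-5p (distance 0.845), followed by miR-615-3p (1.64) and miR-205-5p (1.71). The nearest tested to miR-217-5p were miR-216a-5p (0.328), miR-375-3p (0.709) and miR-615-3p (0.958). Among tested miRNAs, miR-216b-5p was nearest to miR-615-3p (0.483), then miR-216a-5p (0.566) and miR-205-5p (0.582). For miR-216a-5p the order among tested miRNAs was miR-375-3p (0.845), miR-205-5p (0.970) and miR-615-3p (0.997). miR-615-3p, from a hairpin of the Hoxc gene cluster, had 8 and 15 reads in TAA 1 and TAA 2, against 68 and 9 in control 1 and control 2. miR-205-5p, a miRNA of stratified epithelia, had 116 and 124 reads in TAA 1 and TAA 2, against 299 and 84 in control 1 and control 2. Both were therefore also highest in control 1, by 7.00-fold (interval 4.54 to 11.0) and 3.04-fold (2.59 to 3.57) over the other 3 libraries pooled.

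The other miRNAs known from islets were not highest in control 1 as a sum. The 7 listed besides miR-375-3p were arms of miR-7a and miR-7b, miR-184-3p and miR-153-3p. They summed to 29.3 and 28.3 CPM in TAA 1 and TAA 2, against 29.8 and 37.0 CPM in control 1 and control 2. miR-7a-5p, the main miR-7 of islets, had 11.7 and 11.0 CPM in TAA 1 and TAA 2, against 10.8 and 13.6 CPM in control 1 and control 2. miR-184-3p had 7.99 and 6.94 CPM in the TAA libraries, against 7.51 and 12.0 CPM in control 1 and control 2. Both were lower in control 1 than in control 2, while control 1 was the highest library in 2 of the 5 islet miRNAs with reads, miR-7a-1-3p (11.41 CPM, with 11.37 CPM in control 2) and miR-153-3p (1 to 3 reads per library). miR-7b-5p had 1 read in the series, and miR-7a-2-3p and miR-7b-3p had 0. Of the 3 islet miRNAs with enough reads to be tested, 0 passed with all libraries in edgeR, in DESeq2 or at an unadjusted p under 0.05. The shares of all miRNAs that did were 16.6%, 14.5% and 25.6%. The median log2 fold change of the 3 was -0.20 with all libraries and -0.28 without control 1. That last fit, with control 2 as its sole control library, did include a call of lower among them.

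Lists for other tissues and cells were read in the same way, without the members, to see whether control 1 also stood apart there. The 11 epithelial miRNAs summed to 3751 and 4423 CPM in TAA 1 and TAA 2, against 4741 and 4227 CPM in control 1 and control 2, and control 1 was the highest library in 5 of them. The 9 muscle miRNAs, 3 of which had no reads, summed to 3.06 and 3.39 CPM in TAA 1 and TAA 2, against 3.94 and 5.22 CPM in control 1 and control 2. The 10 neural miRNAs summed to 95.1 and 103 CPM in TAA 1 and TAA 2, against 96.2 and 89.5 CPM in control 1 and control 2. The 5 red-cell miRNAs summed to 731 and 2627 CPM in TAA 1 and TAA 2, against 445 and 274 CPM in control 1 and control 2. Of these 4 sums, only the epithelial one was highest in control 1, where it was close to TAA 2. miR-122-5p, the hepatocyte miRNA, was 0.977-fold in control 1 relative to the other 3 libraries pooled.

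Both calls and fold changes in these lists depended on the settings and on the libraries used. In the epithelial list of 11, 1 rose and 3 fell with all libraries, against 14.0% higher and 2.64% lower of all 644 miRNAs. Its median log2 fold change was -0.16 with all libraries, -0.17 without TAA 1 and -0.44 without TAA 2. With upper-quartile factors 0 rose and 3 fell, against 83 higher and 32 lower of all 644. With all libraries and TMM factors miR-31-5p was higher by 0.62 on the log2 scale (SE 0.13, edgeR adjusted p = 0.0156), and miR-203-3p, the most abundant, had -0.43 (SE 0.10, edgeR adjusted p = 0.0248). Among 7 tested neural miRNAs, miR-129-5p rose (1.12 on the log2 scale), and the value of miR-128-3p was -0.01. Their median log2 fold change was -0.22 with all libraries, 0.14 without TAA 1 and -0.18 without TAA 2. The 5 red-cell miRNAs, led by miR-486a-5p, rose with all libraries, and 0 passed with DESeq2, which called 14.5% of 688 miRNAs. Their median log2 fold change was 2.23 with all libraries and 1.03 without TAA 2. Of the 9 hepatocyte miRNAs, which include miR-192-5p (-0.16) and miR-122-3p (-0.32), 0 passed with TMM factors in edgeR or with DESeq2, and 5 had an unadjusted p under 0.05. Among fits with all libraries, 2 were called lower with upper-quartile factors, 2 with no filter and 2 with the replicate numbers crossed. The shares of all miRNAs called lower there were 4.97%, 2.55% and 3.11%. The median log2 fold change of the 9 was -0.26 with all libraries, -0.33 without control 1 and -0.18 without control 2. Leaving out either control, which leaves a single control library, also gave calls of lower among the 9. Neither tested muscle miRNA passed with all libraries, with -0.59 for miR-133a-3p, and 1 had an unadjusted p under 0.05. The muscle median was -0.20 with all libraries and -0.53 without control 1, a fit that did include a call of lower. The part of any of these in the high level of control 1 was not tested, and neither was the tissue from which its reads of miR-216, miR-217 and miR-375 came.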

How the data were processed

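Small RNA libraries were prepared with a TruSeq kit from RNA that an miRNeasy kit had isolated, per the labels' protocols. The authors deposited raw read counts per mature miRNA, made with Bowtie and HTSeq on mm10 per the submitters' processing notes; not given in the sources used here are their versions and settings, and how reads matching several loci were treated. The summary rows, which name no miRNA, held 31.3% to 34.6% of reads and were left out. Libraries differed beyond sampling noise within each group (chi-square per degree of freedom 324 between TAA and 237 between control libraries). Groups were compared by quasi-likelihood in edgeR 4.0.16 (R 4.3.3), after filterByExpr and TMM scaling, with p-values Benjamini-Hochberg adjusted over 644 miRNAs; the standard error is the log2 fold change divided by the root of F. The procedure was tested on simulated counts. Alternatives included DESeq2 1.42.0 and limma-voom (limma 3.58.1). No batches are labelled. Members, lists and tests were chosen with earlier results of these data known. The text names the 8 members, the 3 nearest profiles of each member with a mean of at least 10 reads, and the most abundant miRNA and that with the smallest p of each list.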

Additional observations from a re-analysis of the deposited data

How the results depend on the processing

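The log2 fold change of miR-375-3p was negative in 12 of 13 alternative fits and passed the threshold in 4, with adjusted p-values from 1.36e-42 to 0.787. It passed with library size alone (-2.44), with upper-quartile factors (-2.63) and with no filter on low counts (-2.52), and over the fits that left out 1 library it lay between -3.41 and 0.19. The value of 0.19, without control 1, was the sole reversal, and the 12 negative fits all include control 1. Their number is therefore no measure of how firm the sign is. The number of members called lower was 0 with all libraries, 1 with library size alone, with upper-quartile factors, with DESeq2 and with the replicate block, and 5 with no filter, and it ranged from 0 to 5 over the fits that left out 1 library. Over all miRNAs, the share called lower was 1.86% with library size alone, 4.97% with upper-quartile factors, 3.05% with DESeq2, 2.80% with the replicate block and 2.55% with no filter, where 7 members were tested, against 4 with DESeq2 and 2 in the others. The replicate numbers were not shown to pair the libraries: deviations of same-numbered libraries correlated at -0.13 across miRNAs. With the replicate block miR-216a-5p passed (-3.54, adjusted p = 0.00362) and miR-375-3p did not (-1.62, adjusted p = 0.122), with 110 miRNAs called in all. Pairing the numbers crosswise, added after the data were seen, gave 115 calls and 0 members. Over all miRNAs, the number lower was 17, against 32 with upper-quartile factors and 32 with no filter. Leaving out 1 library gave 2 to 33 lower and 47 to 98 higher. Under the different scalings, the mean of the cluster lay between 0.301 and 0.333 CPM in TAA-treated and between 4.11 and 4.18 CPM in control liver. That of miR-375-3p lay between 9.23 and 10.2 CPM in TAA-treated and between 55.2 and 56.9 CPM in control liver. The control mean of the cluster was 4.13 CPM with both controls, 0.0468 CPM without control 1 and 8.22 CPM without control 2, and that of miR-375-3p was 55.9, 8.47 and 103 CPM in the same order. With at most 22 cluster reads per library outside control 1, few reads bear on differences among those 3 libraries.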
